A study of Mus musculus with 9 samples.

Results

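The heat shock proteins described here are 10 genes of 27945 in the deposited mouse liver table, taken by symbol: the cytosolic chaperone genes Hspa1a, Hspa1b, Hspa8, Hsph1, Dnajb1, Hsp90aa1, Hspb1 and Bag3, and the mitochondrial pair Hspd1 and Hspe1. All 10 had enough counts to be tested. Liver RNA was sequenced from 3 groups of 3 libraries each, all at 16 days. The combined group received glycyrrhizic acid, a saponin of licorice root, together with gefitinib, a drug that blocks the kinase of the receptor EGFR. The gefitinib group received gefitinib without the licorice compound, and the saline group received saline. The series asks whether glycyrrhizic acid attenuates the liver toxicity of gefitinib. For doses, routes, strain, sex and age, nothing is given in the sources used here. Whether each library is a different animal is not labelled, and the p-values therefore reflect spread among these libraries, which may be technical in part.

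Heat shock proteins bind unfolded or partly folded proteins and help them fold, keep them soluble or pass them on for degradation. When unfolded protein accumulates in the cytosol, the transcription factor HSF1 is released from chaperones, forms trimers and binds heat shock elements, which are inverted repeats of the unit GAA, in the promoters of many of these genes. In liver, Hspa8, Hspd1 and Hspe1 are made at rest, while Hspa1a and Hspa1b are the classic genes that stress induces.

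Bag3 rose in the combined group, to about 1.9 times its level in each of the other groups, and no other gene of the set was called in any comparison. A gene was called at an adjusted p under 0.05, by the quasi-likelihood test of edgeR, adjusted by Benjamini-Hochberg over the 18113 tested genes. Of the 10 genes, 0 were called for gefitinib against saline, where 1.14% of all tested genes were called, and 0 had an unadjusted p under 0.05, against 14.1% of all. Bag3 was the 1 gene of 10 called for combined against gefitinib, where the share over all tested genes was 9.08% (4.96% called higher). It was also the 1 gene of 10 called for combined against saline, where the share was 17.7% (9.37% called higher). These counts of 0 or 1 in 10 are near those shares. The median log2 fold change of the 10 genes was -0.082, 0.28 and -0.13 in the 3 comparisons, against medians over all tested genes of -0.00091, 0.0052 and -0.0090. The comparisons share libraries with each other, so they are not independent.

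Total counts ran from 56440871 to 60665156 per library. Levels are given in CPM, counts divided by library totals after TMM scaling, and between genes in the deposited FPKM, which are per length. Albumin, apolipoproteins and the other genes of a list of 10 hepatocyte markers were detected in every library, with sums of 71982 to 89496 CPM in the combined group, 93451 to 97444 CPM in the gefitinib group and 93363 to 104708 CPM in the saline group. In whole liver, fewer cells of a type and less RNA per cell cannot be told apart. Skeletal muscle transcripts were present in 4 libraries, namely the 3 combined libraries and gefitinib library 1. A list of 10 muscle genes summed to between 118 and 152 CPM in the combined libraries and to 172 CPM in gefitinib library 1, against 0.630 to 0.932 CPM in the other gefitinib libraries and 0.268 to 1.06 CPM in the saline libraries.

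By FPKM, Hspa8 was the highest of the set, with a mean of 172 FPKM over the 9 libraries and a range of 130 to 222 FPKM. Hspd1 followed with a mean of 112 FPKM and Hspe1 with 54.2 FPKM, and the ranges of these 3 genes over the libraries did not overlap. Hsp90aa1 averaged 30.7 FPKM, and its range of 25.9 to 49.1 FPKM met that of Hspe1 at its upper end. Below them, Bag3 averaged 8.05 FPKM, Hspb1 6.06, Dnajb1 5.48, Hsph1 5.10 and Hspa1b 4.15 FPKM, and the ranges of these 5 genes overlapped. Hspa1a was the lowest, at 2.08 FPKM. The CPM of the 10 genes summed to 1158 to 1816 per library, and Hspa8 made up 51.5% to 62.3% of that sum.

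**Figure D1:**
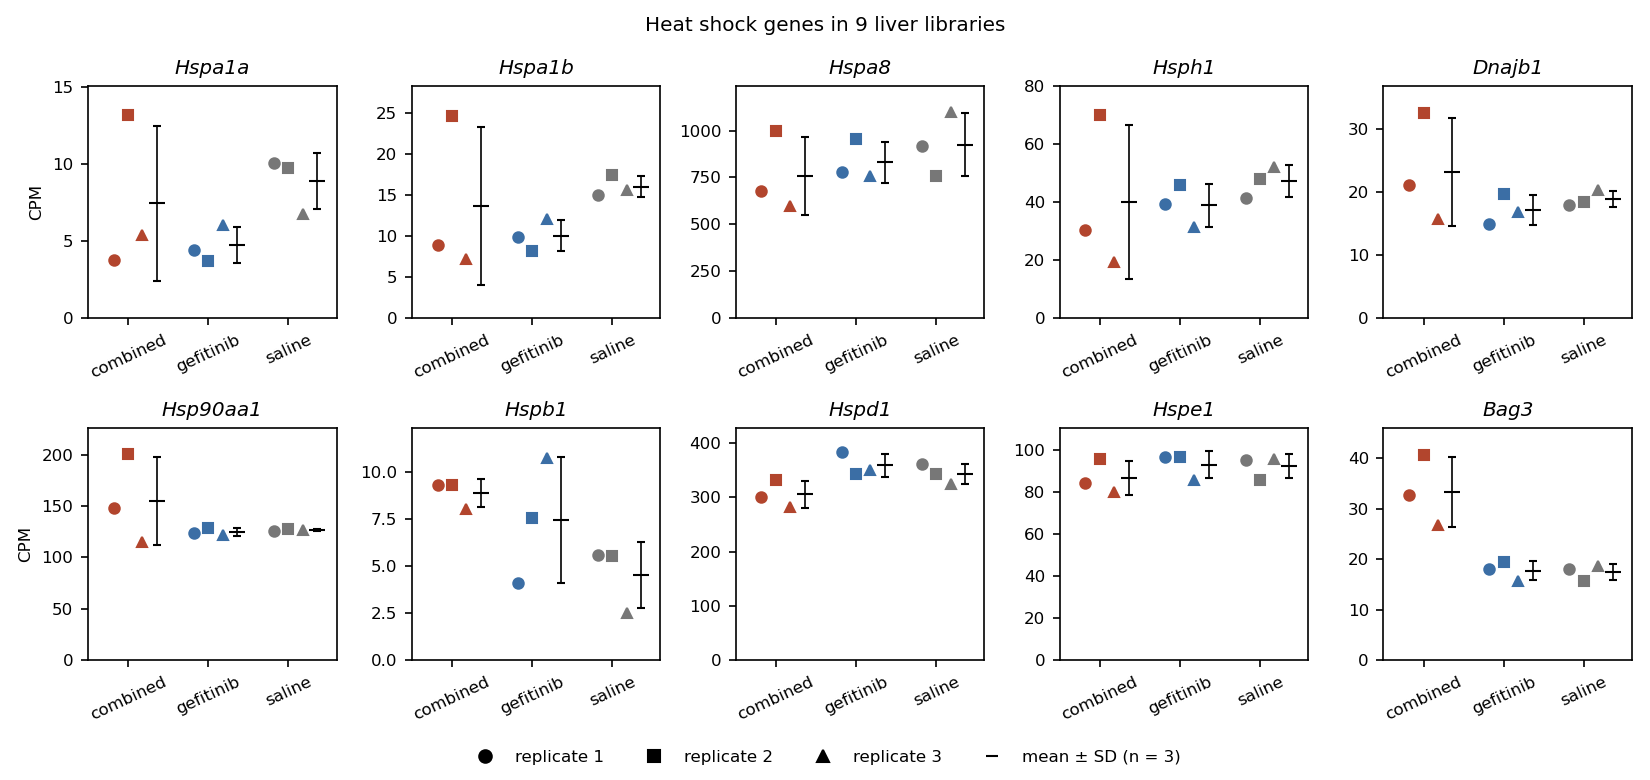
CPM of each heat shock gene (vertical axis, from 0) in the 3 combined, 3 gefitinib and 3 saline libraries, with the mean and SD of each group beside the points. Bag3 lies between 26.8 and 40.6 CPM in the combined libraries, above its 15.7 to 19.4 CPM in the other libraries, and combined library 2 is the top point of its group for most genes.

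Hspa1a (chr17:34969190-34972156, GRCm38, minus strand) and Hspa1b (chr17:34956436-34959238, minus strand) encode the stress-inducible cytosolic HSP70. They are neighbours on chromosome 17 whose transcripts share long stretches: 66.3% of the 50-base words of Hspa1a and 62.3% of those of Hspa1b also occur in other genes. No source used here gives how the authors' counting divided such reads, so the split between the genes is uncertain. Their promoters are almost the same. The RefSeq windows from 250 bases before to 50 after each gene's annotated start (GRCm38.p6, chr17:34972107-34972406 and chr17:34959189-34959488, both minus strand) differed at 4 of 300 bases, which are printed here in capitals to show how little separates the pair.
Hspa1a: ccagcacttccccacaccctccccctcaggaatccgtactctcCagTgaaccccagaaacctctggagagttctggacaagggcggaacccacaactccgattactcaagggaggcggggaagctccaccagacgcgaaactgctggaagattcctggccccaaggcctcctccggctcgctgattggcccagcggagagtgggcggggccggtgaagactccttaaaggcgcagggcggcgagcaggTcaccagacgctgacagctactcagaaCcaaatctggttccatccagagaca
Hspa1b: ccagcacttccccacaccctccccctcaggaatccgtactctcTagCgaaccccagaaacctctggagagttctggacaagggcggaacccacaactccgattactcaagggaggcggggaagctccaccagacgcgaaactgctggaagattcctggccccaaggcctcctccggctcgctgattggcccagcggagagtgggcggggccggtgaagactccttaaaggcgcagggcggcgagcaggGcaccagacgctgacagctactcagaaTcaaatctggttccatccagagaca
Each holds the 2-unit heat shock element GAAGATTC once, starting 104 bases before the gene's start.

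The paired HSP70 genes were lower in every gefitinib library than in every saline library, without passing the test. Hspa1a had 4.43, 3.71 and 6.002 CPM in gefitinib libraries 1 to 3, against 10.1, 9.73 and 6.77 CPM in saline libraries 1 to 3. Hspa1b had 9.89, 8.18 and 12.0 CPM in the gefitinib libraries, against 15.0, 17.4 and 15.6 CPM in the saline libraries. The groups did not overlap for either gene, and for 20% of tested genes (10.2% with gefitinib lower) they did not overlap in this comparison. The fold was 0.533 for Hspa1a (95% interval 0.280 to 1.01, adjusted p = 0.361) and 0.627 for Hspa1b (0.342 to 1.15, adjusted p = 0.495). Because the 2 genes share sequence, their counts were also summed into 1 row, which gave a fold of 0.593 (0.329 to 1.07, adjusted p = 0.421).

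In the combined group the same 2 genes split by library. Hspa1a had 3.77, 13.1 and 5.38 CPM and Hspa1b had 8.95, 24.6 and 7.22 CPM in combined libraries 1 to 3. Combined library 2 was thus the highest of all 9 libraries for both genes, and the other combined libraries lay at or near the gefitinib levels. As a sum, the pair had 12.7, 37.8 and 12.6 CPM in the combined libraries, 14.3, 11.9 and 18.01 CPM in the gefitinib libraries and 25.02, 27.2 and 22.4 CPM in the saline libraries. The summed pair was not called for combined against gefitinib (1.43-fold, 0.793 to 2.57, adjusted p = 0.466) or combined against saline (0.846-fold, 0.471 to 1.52, adjusted p = 0.723). Without combined library 2, Hspa1b was called lower in the combined group than in the saline group (log2 fold change -0.98, adjusted p = 0.0132). Hspa1a had -0.95 (adjusted p = 0.0633). Leaving out the highest library had to lower the combined mean. Hspa1b was called against saline in 1 of 19 settings, and without combined library 3 its log2 fold change was 0.070. Against gefitinib, the log2 fold changes without combined library 2 were -0.043 for Hspa1a and -0.31 for Hspa1b. These were opposite in sign to those with it (0.66 and 0.44). The count of Hspa1b was 1.34 to 2.37 times that of Hspa1a over the 9 libraries.

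Hspa8 (chr9:40800984-40810087, plus strand) encodes the constitutive cytosolic HSP70, HSC70. It had 680, 996 and 598 CPM in combined libraries 1 to 3, 781, 954 and 757 CPM in the gefitinib libraries, and 920, 760 and 1098 CPM in the saline libraries. The 3 groups overlapped. The fold was 0.897 for gefitinib against saline (0.653 to 1.23, adjusted p = 0.811), 0.912 for combined against gefitinib (0.664 to 1.25, adjusted p = 0.759) and 0.819 for combined against saline (0.596 to 1.125, adjusted p = 0.382). A processed pseudogene, Gm15459, holds 34.6% of the 50-base words of Hspa8 and was itself given 33.6% to 44.6% as many counts as Hspa8 per library, so the level of Hspa8 is uncertain by a share of that size. Adding such near-identical copies to their parent genes, an alternative chosen after seeing the data, changed no call in the set.

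Hsph1 (chr5:149614287-149636376, minus strand) encodes HSP110, a nucleotide exchange factor for HSP70, and Dnajb1 (chr8:83608193-83612653, plus strand) encodes the HSP40 that delivers substrates to HSP70. Hsph1 had 30.5, 70.0 and 19.4 CPM in the combined libraries, 39.2, 46.1 and 31.4 CPM in the gefitinib libraries and 41.6, 48.1 and 52.3 CPM in the saline libraries. Both the highest and the lowest of its 9 values were in the combined group. The fold of Hsph1 for combined against gefitinib was 1.03 (0.575 to 1.84, adjusted p = 0.969). Its log2 fold change there was 0.039, and -0.64 without combined library 2 (adjusted p = 0.132). Without combined library 2, its highest, Hsph1 was called lower in the combined group than in the saline group. The log2 fold change was -0.92 and the adjusted p 0.0282, against -0.24 and 0.717 with that library. This was its call in 1 of 20 settings, and without combined library 3 the log2 fold change was 0.086.

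Dnajb1 had 21.1, 32.5 and 15.7 CPM in the combined libraries, 14.9, 19.7 and 16.7 CPM in the gefitinib libraries and 17.9, 18.4 and 20.3 CPM in the saline libraries. Its fold for combined against gefitinib was 1.35 (0.946 to 1.93, adjusted p = 0.288), and without combined library 2 the log2 fold change was 0.11, against 0.43 with it. For combined against saline the fold was 1.22 (0.858 to 1.75, adjusted p = 0.434), and for gefitinib against saline it was 0.906 (0.634 to 1.29, adjusted p = 0.855).

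Hsp90aa1 (chr12:110690605-110702728, minus strand) encodes the inducible cytosolic HSP90 alpha, which matures kinases and steroid receptors and helps hold HSF1 inactive at rest. It had 149, 201 and 115 CPM in the combined libraries, 124, 129 and 121 CPM in the gefitinib libraries and 126, 127 and 127 CPM in the saline libraries. The 6 gefitinib and saline libraries lay between 121 and 129 CPM, while the combined libraries spread on both sides of them. The SD of log2 CPM was 0.40 in the combined group, against 0.043 in the gefitinib group and 0.0091 in the saline group. Hsp90aa1 was not called for combined against gefitinib (1.24-fold, 0.957 to 1.61, adjusted p = 0.296) or combined against saline (1.22-fold, 0.942 to 1.59, adjusted p = 0.278). Without combined library 2 the log2 fold changes were 0.081 and 0.058, against 0.31 and 0.29 with it. Its FPKM was 0.136 to 0.220 of that of Hsp90ab1, the constitutive partner gene, in the combined libraries, 0.130 to 0.135 in the gefitinib libraries and 0.132 to 0.146 in the saline libraries.

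Hspb1 (chr5:135887919-135889563, plus strand) encodes the small heat shock protein HSP27 (HSP25 in mouse), which holds unfolded proteins in solution without ATP and binds actin. It had 9.33, 9.29 and 8.01 CPM in the combined libraries, 4.09, 7.53 and 10.8 CPM in the gefitinib libraries and 5.56, 5.54 and 2.48 CPM in the saline libraries. Every combined library was above every saline library, as was so with combined higher for 19.3% of tested genes (37.3% in either direction), while the gefitinib libraries covered almost the whole range. Hspb1 was 1.96-fold higher in the combined group than in the saline group (1.10 to 3.49) at an unadjusted p of 0.0263 (31.8% of tested genes were under 0.05), and its adjusted p of 0.103 missed the threshold. With limma on log2(FPKM + 1), limma on log2(FPKM + 0.1) and DESeq2 it passed, at adjusted p of 0.0463, 0.0473 and 0.0395, within a range of 0.0395 to 0.234 over all alternatives. Without saline library 3, its lowest, the log2 fold change was 0.68, against 0.97 with it. Other genes hold 50.1% of its 50-base words, so reads may have gone to its pseudogenes.

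Bag3 (chr7:128523616-128546981, plus strand) encodes a co-chaperone that binds HSP70 and small heat shock proteins, HSPB8 above all, and routes damaged proteins to autophagy. It is an HSF1 target and is highly expressed in muscle. Bag3 had 32.6, 40.6 and 26.8 CPM in combined libraries 1 to 3, 18.03, 19.4 and 15.7 CPM in the gefitinib libraries, and 18.02, 15.7 and 18.5 CPM in the saline libraries. The lowest combined library was above the highest of the other 6. Of tested genes, 16.2% were higher without overlap than in the gefitinib group alone, and 19.3% than in the saline group alone. The share above both groups was not computed. For combined against gefitinib, Bag3 rose 1.88-fold (95% interval 1.47 to 2.41), with a log2 fold change of 0.91 ± 0.16 (SE, n = 3 libraries per group) and an adjusted p of 0.00846 from edgeR. By p it was 438th of the 18113 tested genes. For combined against saline it rose 1.91-fold (1.49 to 2.45), with an adjusted p of 0.00391. Gefitinib and saline libraries overlapped, at 1.02-fold (0.795 to 1.30, adjusted p = 0.972).

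Bag3 was called in both comparisons in all 20 settings tried, with each of the 9 libraries left out in turn among them. Not all of these could move it. Summing Hspa1a with Hspa1b or adding copies to other genes left its counts as they were. Leaving out a saline library left its log2 fold change against gefitinib at 0.91. The adjusted p of Bag3 ranged from 1.6e-05 to 0.0367 against gefitinib and from 4.23e-06 to 0.0185 against saline. None of its 50-base words occur in another annotated transcript. The gene 2610306O10Rik overlaps the span of Bag3 by 612 bases on the same strand. The Bag3 promoter window is shown because this is the gene that changed. It runs from 250 bases before to 50 after the start (RefSeq, GRCm38.p6, chr7:128523333-128523632, plus strand), and its 1 heat shock element of 2 units, in capitals, starts at base 43 counted from the start. The element ends where the window ends, so a further unit beyond it was not searched for.
Bag3: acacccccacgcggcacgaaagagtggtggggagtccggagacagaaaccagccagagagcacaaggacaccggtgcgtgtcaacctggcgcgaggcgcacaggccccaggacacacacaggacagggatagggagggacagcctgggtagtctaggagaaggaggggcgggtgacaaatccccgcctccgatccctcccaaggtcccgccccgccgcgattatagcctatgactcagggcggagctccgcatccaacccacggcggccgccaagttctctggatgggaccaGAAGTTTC
The 2-unit element was searched as GAANNTTC or TTCNNGAA, which each read the same way on both strands, and 15.1% of 32851 RefSeq promoter windows hold it.

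Markers of other cells also differed between the groups, some higher and some lower where Bag3 was higher, and their part in its rise was not tested. Of 10 macrophage markers, 6 were called higher in the combined group than in the gefitinib group and 7 than in the saline group, with sums of 1125 to 1298 CPM in the combined libraries, 288 to 406 CPM in the gefitinib libraries and 196 to 302 CPM in the saline libraries. All 10 were detected in every library. Of 10 stellate cell and fibroblast genes, 4 were called higher and 0 lower against gefitinib, and 4 higher and 1 lower against saline, and their sums ran from 411 to 496 CPM in the combined libraries, 155 to 202 CPM in the gefitinib libraries and 208 to 284 CPM in the saline libraries. Of 10 sinusoidal endothelial markers, 6 were called lower against gefitinib and 10 against saline, with sums of 73.9 to 113 CPM in the combined libraries, 143 to 167 CPM in the gefitinib libraries and 338 to 434 CPM in the saline libraries. The macrophage and endothelial lists moved in opposite directions in the same 3 libraries. Of 10 neutrophil genes, 0 were called against gefitinib and 7 were called higher against saline, with sums of 40.1, 13.5 and 202 CPM in combined libraries 1 to 3, 14.3 to 34.4 CPM in the gefitinib libraries and 3.99 to 6.69 CPM in the saline libraries. All 10 were detected in the combined libraries, Elane had 0 counts in gefitinib library 1, and 1 to 3 of the 10 had 0 counts in each saline library, Mpo and Retnlg among them. Combined library 2, the highest of its group for Bag3, was the lowest for neutrophil genes. It was the highest for macrophage markers (1298 CPM) and for stellate cell and fibroblast genes (496 CPM), and the middle one for endothelial markers (109 CPM).

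Of 15 immediate early genes, whose transcripts also respond to tissue handling, 10 were called higher against gefitinib and 8 against saline. Their sums were 460 to 585 CPM in the combined libraries, 131 to 193 CPM in the gefitinib libraries and 186 to 382 CPM in the saline libraries. Fosb, one of the 15, had 0 counts in gefitinib libraries 2 and 3 and saline libraries 1 and 2. Of 10 p53 targets, 8 were called higher against gefitinib and 9 against saline, with sums of 517 to 697 CPM in the combined libraries, 153 to 181 CPM in the gefitinib libraries and 198 to 230 CPM in the saline libraries. Eda2r, one of the 10, had 0 counts in saline library 2. Of 13 clock genes, whose levels follow the time of day, 2 were called higher and 4 lower against gefitinib, and 1 higher and 2 lower against saline. Their sums were 231 to 394 CPM in the combined libraries, 509 to 659 CPM in the gefitinib libraries and 358 to 478 CPM in the saline libraries. The part of these genes in the Bag3 values was not tested.

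Muscle transcripts were also in 1 library outside the combined group. Gefitinib library 1, with 172 CPM of muscle transcripts, had 18.03 CPM of Bag3, between the 15.7 and 19.4 CPM of gefitinib libraries 3 and 2, in which 7 and 5 of the 10 muscle genes had 0 counts. Without gefitinib library 1, Bag3 was higher in the combined group by a log2 fold change of 0.93 (adjusted p = 0.0330). In the saline libraries, 7 or 8 of the 10 muscle genes had 0 counts, among them the creatine kinase gene Ckm and the myosin gene Myh1. This is 1 library, and all 3 combined libraries held muscle transcripts. The part of muscle transcripts in the Bag3 values was not tested.

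**Figure D2:**
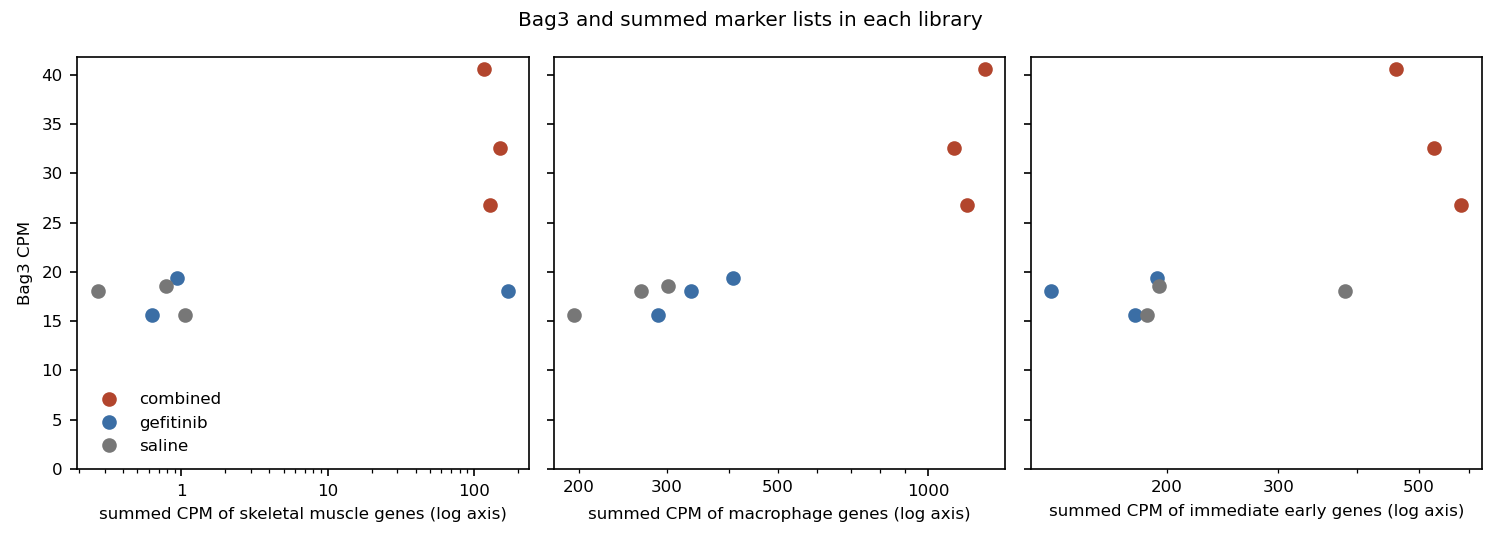
CPM of Bag3 (vertical axis) against the summed CPM of skeletal muscle, macrophage and immediate early gene lists (log axes) in the 9 libraries. The 3 combined libraries are uppermost in each panel, and furthest right in the macrophage and immediate early panels. In the muscle panel gefitinib library 1 is furthest right, at 172 CPM with 18.03 CPM of Bag3.

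The mitochondrial chaperonin was the steadiest pair of the set. Hspd1 (chr1:55077835-55088243, minus strand) encodes HSP60, which forms the folding chamber of the mitochondrial matrix, and Hspe1 (chr1:55088132-55091307, plus strand) encodes HSP10, its lid. The genes lie head to head and their annotated spans overlap by 112 bases on opposite strands, so they share a promoter region, and reads from the overlap cannot be assigned if counting ignored strand. The window of Hspe1 is shown because it holds the longest run of heat shock units found in the set (RefSeq, GRCm38.p6, chr1:55087898-55088197, plus strand). The run, in capitals, starts 89 bases before the start of Hspe1, and the same bases lie in a window of Hspd1, beginning 144 bases before its start.
Hspe1: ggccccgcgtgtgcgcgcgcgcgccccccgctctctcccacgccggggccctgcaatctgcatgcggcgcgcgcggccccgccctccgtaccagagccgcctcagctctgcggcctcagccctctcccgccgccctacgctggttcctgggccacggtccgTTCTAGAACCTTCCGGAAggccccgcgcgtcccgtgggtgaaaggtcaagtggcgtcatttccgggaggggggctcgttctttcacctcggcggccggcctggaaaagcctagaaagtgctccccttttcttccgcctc
It contains 2 overlapping matches to the 3-unit element, GAANNTTCNNGAA or TTCNNGAANNTTC on either strand, which 0.603% of all promoter windows hold. These are matches of letters only.

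Hspd1 had 301, 333 and 283 CPM in the combined libraries, 384, 344 and 351 CPM in the gefitinib libraries and 361, 344 and 324 CPM in the saline libraries. Every combined library was below every gefitinib library, as for 15% of tested genes (31.2% in either direction). The fold was 0.850 (0.724 to 0.999), with an unadjusted p of 0.0485 (24.3% of tested genes were under 0.05) and an adjusted p of 0.201, so Hspd1 was not called. Against saline it was 0.891 in the combined group (0.758 to 1.05, adjusted p = 0.316) and 1.05 in the gefitinib group (0.892 to 1.23, adjusted p = 0.844).

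Hspe1 had 84.2, 95.6 and 80.0 CPM in the combined libraries, 96.5, 96.8 and 85.6 CPM in the gefitinib libraries and 95.1, 85.6 and 95.8 CPM in the saline libraries, and all groups overlapped. Its fold was 0.931 for combined against gefitinib (0.793 to 1.09, adjusted p = 0.612), 0.939 for combined against saline (0.800 to 1.10, adjusted p = 0.611) and 1.01 for gefitinib against saline (0.859 to 1.18, adjusted p = 0.980). The highest of the 9 values was 1.21 times the lowest for Hspe1 and 1.36 times for Hspd1, against 4.34 times for Hspb1. The FPKM of Hspd1 was 1.94 to 2.00 times that of Hspe1 in the combined libraries, 1.98 to 2.29 times in the gefitinib libraries and 1.89 to 2.24 times in the saline libraries. Changes of this size depend on scaling. Scaling by library totals in place of TMM moved the median log2 fold change of all tested genes by 0.17 for combined against gefitinib and by 0.21 for combined against saline, and under it Hspe1 had log2 fold changes of 0.064 and 0.12 in those comparisons, against -0.10 and -0.090 with TMM.

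**Figure D3:**
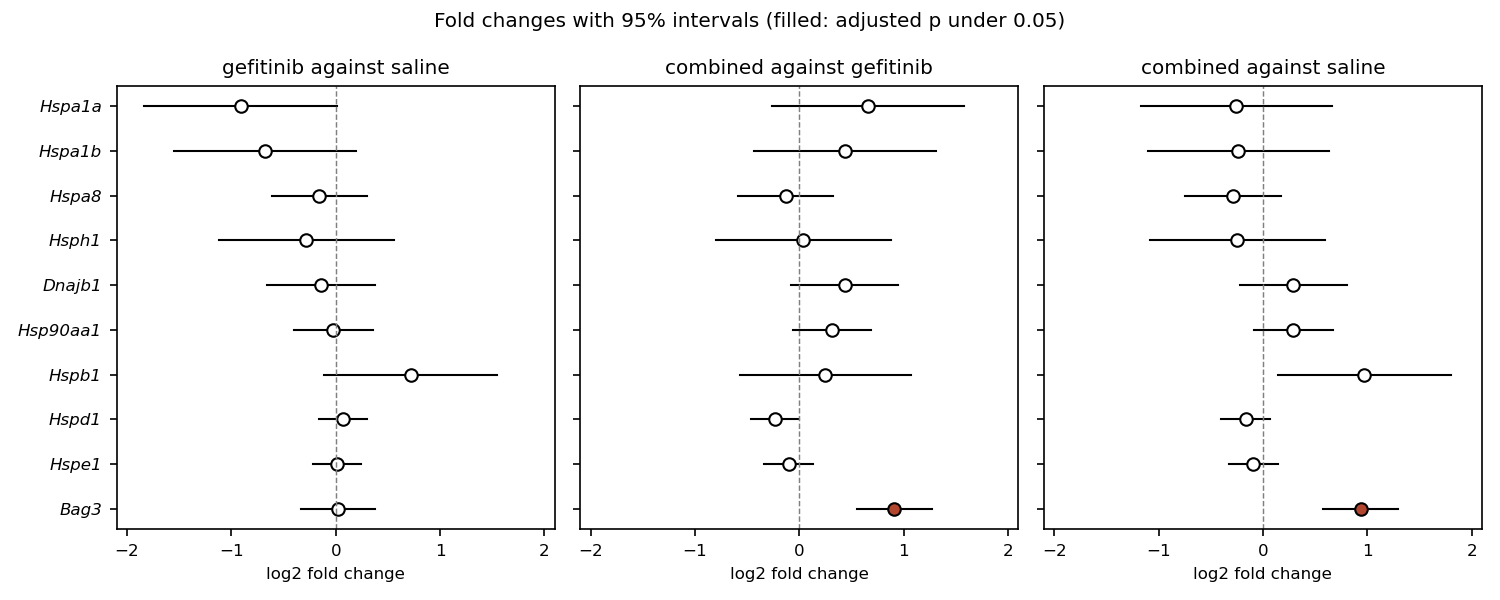
Log2 fold change of each heat shock gene with its 95% interval in the 3 comparisons (horizontal axis). Filled points are called, and only Bag3 is, at 0.91 for combined against gefitinib and 0.94 for combined against saline.

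Of the remaining promoter windows, those of Hsph1 held 3 matches to the 2-unit element and 1 to the 3-unit element, that of Hspb1 held 2 matches to the 2-unit element, and those of Dnajb1 held none of either. Windows were found for 8 of the 10 genes, and Hspa8 and Hsp90aa1 were not matched.

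The clearest variation in the set was within the combined group. Combined library 2 was the highest of the 3 combined libraries for 9 of the 10 genes, all but Hspb1, and combined library 3 was the lowest for 9 of 10, all but Hspa1a. Over all tested genes, 33.1% were highest in combined library 2 and 34.2% lowest in combined library 3. The SD of log2 CPM in the combined group was 0.92 for Hspa1a, 0.94 for Hspa1b and 0.94 for Hsph1, against a median of 0.26 over all tested genes, and above that of about 88% of them (88.2%, 88.5% and 88.4%). It was 0.53 for Dnajb1, 0.38 for Hspa8 and 0.30 for Bag3, and 0.12 to 0.13 for Hspb1, Hspd1 and Hspe1.

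The 6 cytosolic genes without Hspb1 and Bag3 varied together, largely through that library. Among their 15 pairs, Pearson correlations of log2 CPM over the 9 libraries ran from 0.36 to 0.94 with a median of 0.60, and all 15 were above 0. Without combined library 2 they ran from -0.33 to 0.85 with a median of 0.30, and 13 were above 0. The pattern was not particular to the 6 genes. Over the 9 libraries, r with each of the 6 ran from 0.16 to 0.87 for Hspe1 and from -0.16 to 0.50 for Hspd1. It ran from -0.084 to 0.77 for Bag3 and from -0.47 to 0.32 for Hspb1. With group means removed, Bag3 had r of 0.32 to 0.93 with the 6 genes. The points share library and depth, and those over the 9 libraries include the 3 groups, so this is a description only.

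**Figure D4:**
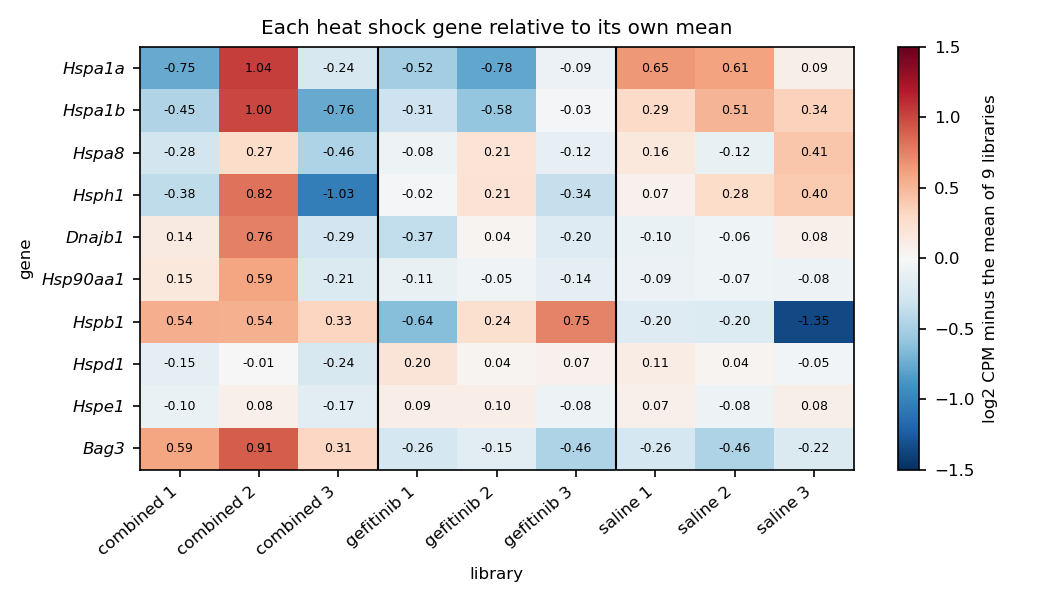
Log2 CPM of each heat shock gene minus its mean over the 9 libraries (colour, with the value printed), by library. Combined library 2 is above the mean for 9 of the 10 genes, from 1.04 for Hspa1a to 0.080 for Hspe1, and is at -0.0086 for Hspd1.

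The genes most like the cytosolic chaperones were those with the highest correlation with the mean standardised log2 CPM of the 6 genes over the 9 libraries. Among them were Srp72 (r = 0.93), Ndufab1 (0.91), AW209491 (0.90), Ksr1 (0.90), CT010467 (0.90), Smc1b (0.89) and Sec24a (0.88). These 7 were all highest in combined library 2. CT010467 is annotated as ribosomal RNA, and had 3186, 6238 and 1393 CPM in combined libraries 1 to 3, 1926, 1932 and 2232 CPM in the gefitinib libraries and 2576, 4062 and 3809 CPM in the saline libraries. It was higher in combined libraries 1 and 2 and in the saline libraries than in any gefitinib library, and its part in the values of Hspa1a and Hspa1b was not tested. The genes most like the mean of Hspd1 and Hspe1 were Gripap1 (r = 0.95), Aqp4 (0.94), Acot13 (0.94), Rhobtb2 (0.94) and the pseudogene Oaz2-ps (0.94).

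Among the other small heat shock proteins, Hspb8, the partner of BAG3, was called higher in the combined group in both comparisons, and it was the 1 of 6 tested genes of that list called. Over all tested genes, 9.08% were called for combined against gefitinib and 17.7% for combined against saline. These shares, and 1.14% for gefitinib against saline, stand beside the counts of each list below. Hspb8 had 176, 200 and 178 CPM in the combined libraries, 126, 128 and 117 CPM in the gefitinib libraries and 113, 134 and 148 CPM in the saline libraries. It was 1.497-fold higher than in the gefitinib group (1.25 to 1.79, adjusted p = 0.0151) and 1.40-fold higher than in the saline group (1.17 to 1.68, adjusted p = 0.0188). It missed the threshold against gefitinib without gefitinib library 1 (adjusted p = 0.0504) or 3 (0.0602), and against saline without combined library 2 (0.0588), saline library 1 (0.0576) or saline library 2 (0.0503). The median log2 fold change of the 6 genes was -0.052, 0.53 and 0.63 for gefitinib against saline, combined against gefitinib and combined against saline, and 2 of the 6, Hspb2 and Hspb7, were below 1 CPM in every library. In other settings, 0 to 2 of the 6 were called in each comparison with the combined group. All 3 combined libraries and gefitinib library 1 held skeletal muscle transcripts, as given above. Their part in the values of Hspb8 and of this list was not tested.

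Of 18 other HSF1 target genes, 0 were called for gefitinib against saline, 3 higher and 1 lower for combined against gefitinib, and 4 higher and 0 lower for combined against saline. Hspb8 is counted here too, as are several uncalled genes of the other lists. Serpinh1, the collagen chaperone HSP47 of the endoplasmic reticulum, had 15.1, 17.4 and 14.7 CPM in the combined libraries, 5.12, 3.80 and 4.30 CPM in the gefitinib libraries and 10.8, 6.999 and 6.19 CPM in the saline libraries. It was 3.57-fold higher against gefitinib (adjusted p = 0.00147) and 1.97-fold against saline (adjusted p = 0.0138, and 0.0522 without saline library 2). Serpinh1 is made by collagen-producing cells, whose marker sums moved with it as given above, and their part was not tested.

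Hmox1, the haem-degrading enzyme that also responds to oxidative stress, had 51.5, 56.3 and 53.7 CPM in the combined libraries, 35.6, 26.6 and 33.1 CPM in the gefitinib libraries and 27.9, 15.9 and 20.99 CPM in the saline libraries. It was 2.49-fold higher against saline (adjusted p = 0.00164). Macrophages also express Hmox1, and the part of the higher macrophage sums was not tested. Against gefitinib it was 1.69-fold higher (adjusted p = 0.0346), a call lost when any 1 of the 6 libraries compared was left out, at adjusted p of 0.0653 to 0.102. That call was also lost with no filter (0.0620). Zfand2a, a proteasome-associated protein induced by arsenite, was 2.07-fold higher against saline, at 18.1, 17.8 and 11.1 CPM in the combined libraries and 6.26, 7.48 and 9.01 CPM in the saline libraries (adjusted p = 0.0101). Dedd2 was lower against gefitinib (0.642-fold, adjusted p = 0.0300), at 18.7, 25.6 and 17.6 CPM in the combined libraries and 35.7, 31.7 and 29.1 CPM in the gefitinib libraries. The call of Dedd2 was lost without combined library 1 or 3 or any 1 gefitinib library, at adjusted p of 0.0503 to 0.106. It was also lost with library total scaling (0.0765), no filter (0.0524), only the 6 libraries compared (0.0540) and both limma fits (0.0803 and 0.0814). The median log2 fold change of the 18 genes was -0.016, 0.10 and 0.12 in the 3 comparisons. Over the settings tried, 0 to 2 of them were called for gefitinib against saline, 1 to 6 for combined against gefitinib and 2 to 6 for combined against saline.

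**Figure D5:**
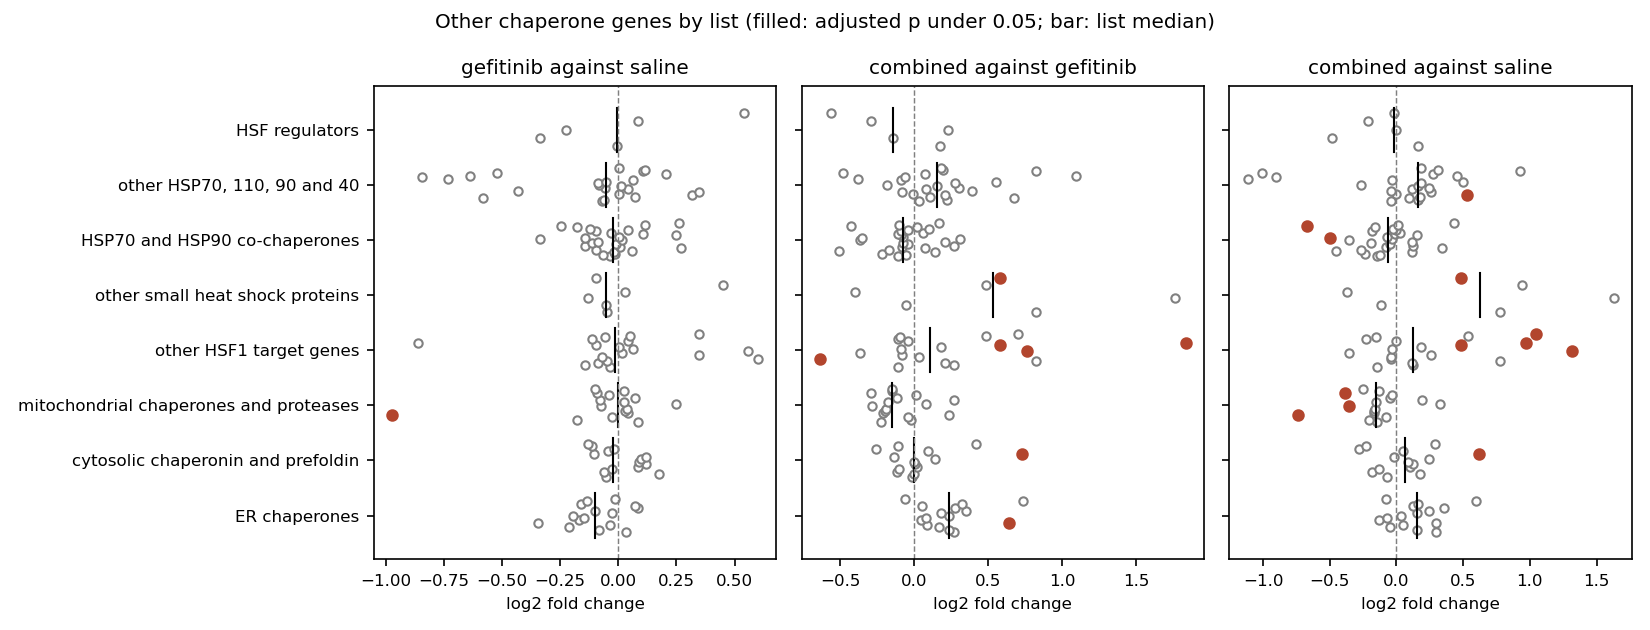
Log2 fold change (horizontal axis) of each tested gene of 8 lists of other chaperone genes in the 3 comparisons, with the list median as a bar. Filled points are called, at 1, 6 and 11 distinct genes of 111 tested from left to right. Of all tested genes, 1.14%, 9.08% and 17.7% were called in those comparisons. Hspb8 is drawn in 2 lists, as are several uncalled genes that 2 lists share.

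The regulators of the response were not called by edgeR with TMM scaling. Hsf1 itself, named here after its values were seen, had 21.3, 20.4 and 20.3 CPM in the combined libraries, 18.05, 16.8 and 18.2 CPM in the gefitinib libraries and 16.5, 19.1 and 26.4 CPM in the saline libraries. It was at 1.17-fold for combined against gefitinib (adjusted p = 0.440) and 0.854-fold for gefitinib against saline (adjusted p = 0.595). Of the 5 tested genes of the list, which held the heat shock factors and the HSF-binding protein genes, 0 were called in any comparison by that fit. By unadjusted p under 0.05 there were 1 for gefitinib against saline, 2 for combined against gefitinib and 0 for combined against saline. With library total scaling and with both limma fits, 1 of the 5 was called higher in each comparison with the combined group. The smallest unadjusted p was that of Hsf4 for combined against gefitinib, at 0.678-fold and an adjusted p of 0.140.

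Of 23 other cytosolic HSP70, HSP110, HSP90 and HSP40 genes, 1 was called in 1 comparison. Dnajb14, a membrane-anchored HSP40 of the endoplasmic reticulum, was 1.44-fold higher for combined against saline (adjusted p = 0.0407), at 17.7, 20.1 and 18.02 CPM in the combined libraries and 12.6, 15.5 and 10.6 CPM in the saline libraries, and that call was lost without any 1 combined library, gefitinib library 1 or 2, or saline library 1 or 3 (adjusted p of 0.0504 to 0.114). The call of Dnajb14 was also lost with the replicate block (0.0632), no filter (0.0666) and only the 6 libraries compared (0.0596). Over the settings tried, 0 to 6 genes of this list were called for combined against saline, with 6 higher under library total scaling, and 0 to 2 for combined against gefitinib. Of 26 co-chaperones, 2 were called, both lower for combined against saline. They were Fnip1 (0.709-fold, adjusted p = 0.0115) and Tsc1 (0.628-fold, adjusted p = 0.0173), which slow the ATPase cycle of HSP90 and are better known in nutrient signalling. Fnip1 kept its direction and missed the threshold with library total scaling (adjusted p = 0.111) and with limma on log2(FPKM + 1) (0.147) and log2(FPKM + 0.1) (0.145), where its log2 fold change was -0.22 at the smallest, against -0.50. Tsc1 missed it without combined library 1 (0.0554) or 2 (0.0592) or saline library 2 (0.0562), and with the same limma fits (0.0950 and 0.0898). The number of this list called for combined against saline ran from 0 to 3 over the settings tried, with 3 higher and 0 lower in the limma fits.

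Of 16 other mitochondrial chaperones and proteases, Clpx, the unfoldase of the matrix protease ClpXP, was the 1 called for gefitinib against saline. Clpx had 237, 246 and 328 CPM in the combined libraries, 267, 173 and 248.9 CPM in the gefitinib libraries and 403, 495 and 457 CPM in the saline libraries. It was at 0.509-fold for gefitinib against saline (adjusted p = 0.0450) and at 0.598-fold for combined against saline (adjusted p = 0.0218). Leaving out any library but combined library 3 ended its call for gefitinib against saline (adjusted p of 0.0528 to 0.129), and leaving out combined library 1 or 2 or saline library 2 or 3 ended that for combined against saline (0.0556 to 0.0815). The call for gefitinib against saline was also lost with the replicate block (0.0851), no filter (0.0831) and only the 6 libraries compared (0.0581).

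For combined against saline, Grpel2, a nucleotide exchange factor of the mitochondrial HSP70 (0.780-fold, adjusted p = 0.0203), and Timm44, which tethers that HSP70 to the import channel (0.766-fold, adjusted p = 0.0114), were also called lower. Grpel2 was not called without combined library 1 (0.0644) or 3 (0.0539) or saline library 2 (0.0668) or 3 (0.0613). With library totals in place of TMM, both kept their direction and missed the threshold, at adjusted p of 0.266 and 0.226, as they did with both limma fits (0.209 to 0.261), and Grpel2 did with the replicate block (0.0519). In this list 0 were called for combined against gefitinib, where 3 had an unadjusted p under 0.05 while DESeq2 called 2 lower and library total scaling and both limma fits called 1 higher. For combined against saline, library total scaling and both limma fits called 1 higher and 1 lower in place of 3 lower.

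Of 14 genes of the cytosolic chaperonin and prefoldin, Pfdn4, a prefoldin subunit, was called higher for combined against gefitinib (1.66-fold, adjusted p = 0.0380) and combined against saline (1.54-fold, adjusted p = 0.0436). It had 7.96, 10.8 and 9.13 CPM in the combined libraries, 5.64, 5.31 and 5.88 CPM in the gefitinib libraries and 7.26, 5.73 and 5.13 CPM in the saline libraries. Leaving out any 1 of the 6 libraries compared against gefitinib ended that call (adjusted p of 0.0501 to 0.113), and leaving out combined library 2 or 3, any 1 gefitinib library or saline library 2 or 3 ended the other (0.0557 to 0.135). Both were also lost with the replicate block (0.0840 against gefitinib, 0.0853 against saline) and no filter (0.0594 and 0.0663). With only the 6 libraries compared, the call against saline was lost (0.0726). Over the settings tried, 0 to 2 genes of this list were called for combined against gefitinib and 0 to 5 for combined against saline, with 4 higher under library total scaling.

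Of 15 chaperones of the endoplasmic reticulum, Dnajb9, an HSP40 of that compartment that responds to unfolded protein there, was called higher for combined against gefitinib (1.56-fold, adjusted p = 0.0395). It had 67.8, 78.5 and 48.6 CPM in the combined libraries, 42.1, 38.2 and 44.7 CPM in the gefitinib libraries and 57.7, 47.1 and 54.2 CPM in the saline libraries. Its call was lost without combined library 1 or 2, any 1 gefitinib library or saline library 3 (adjusted p of 0.0544 to 0.112). It was also lost with the replicate block (0.0837), no filter (0.0696) and only the 6 libraries compared (0.0636). The fold was above 1 for 3 of the 15 genes for gefitinib against saline, for 14 for combined against gefitinib and for 11 for combined against saline. The median log2 fold changes were -0.0996, 0.23 and 0.15, against -0.00091, 0.0052 and -0.0090 over all tested genes, and 0 were called for the first and the last of these comparisons, where 0 and 1 had an unadjusted p under 0.05. Over the settings tried, 0 to 4 genes of the list were called for combined against gefitinib and 0 to 3 for combined against saline, with 3 higher in each under library total scaling.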

How the data were processed

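RNA of 9 mouse liver libraries, 3 per group, was sequenced. Counts in the deposited table are whole numbers, left unnormalised by the authors, beside FPKM values that the authors computed, per the file headers. GRCm38 and mm10 are named in the submitters' processing notes. The aligner, counting tool and strand setting were not given in the sources used here. All 18 sample columns matched a library by name. The 9 libraries entered the fits as 9 replicates. No 2 libraries of a group were the same data deposited again (chi-square per degree of freedom 74.8 to 155), which does not show separate animals.

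Counts were filtered with filterByExpr (18113 tested, 9832 not), scaled by TMM (factors 0.905 to 1.14) and fitted over all 9 libraries with the quasi-likelihood test of edgeR 4.0.16 in R 4.3.3, checked on simulated counts. Genes were called at a Benjamini-Hochberg adjusted p under 0.05 over all tested genes, with no minimum fold. Alternatives were the replicate number as a block, a mean of at least 5 FPKM, library total scaling, no filter, only the 6 libraries compared, limma 3.58.1 on log2 FPKM, DESeq2 1.42.0 and each library left out. Words of 50 bases were compared over GENCODE M21 transcripts. The 10 genes and all lists (8 of pathways with 114 genes, 9 of markers) were chosen with earlier results of these data known. From each pathway list, the called genes with the smallest adjusted p, at most 4 per comparison, were named, or at most 1 where none was called. One of the genes most alike in pattern is not reported here.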

Additional observations from a re-analysis of the deposited data

How the results depend on the processing

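The replicate numbers did not pair the libraries: deviations of same-numbered libraries correlated between -0.076 and 0.072 over genes. With the replicate number as a block, genes called fell to 82 for gefitinib against saline (206 without it) and to 1028 for combined against gefitinib (1644 without it), and Bag3 stayed called (adjusted p = 0.0201 and 0.0105 against gefitinib and saline).

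For gefitinib against saline, genes called numbered 82 with no filter, 99 at a mean of at least 5 FPKM, 134 with only the 6 libraries compared, 103 and 115 with limma on log2(FPKM + 1) and log2(FPKM + 0.1), 870 with DESeq2, and 33 to 176 with 1 library left out. For combined against gefitinib they numbered 1092 with no filter, 920 at 5 FPKM, 2744 with DESeq2 and 780 to 1531 with 1 library left out. For combined against saline they numbered 3205, but 1581 at 5 FPKM and 2106 to 3019 with 1 library left out. Library total scaling moved the split for combined against gefitinib to 1513 higher and 380 lower, from 899 and 745, and for combined against saline to 2980 and 805, from 1698 and 1507. With limma on log2(FPKM + 1) and log2(FPKM + 0.1) the splits were 1851 and 406, and 1664 and 400, for combined against gefitinib, and 3314 and 849, and 3266 and 863, for combined against saline. Heat shock genes called for combined against saline numbered 2 with both limma fits and DESeq2 (Hspb1 added) and 1 to 3 with 1 library left out, 3 without combined library 2. In the other comparisons their number did not move in any setting run. At 5 FPKM only 8 of the 10 were tested.

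Values that changed sign were all uncalled. With the block Hsph1 had -0.088 (log2, combined against gefitinib). With library total scaling, limma on log2(FPKM + 1) and limma on log2(FPKM + 0.1), Hsp90aa1 had 0.020, 0.023 and 0.023 for gefitinib against saline. In those settings, combined against gefitinib gave Hspa8 0.031, 0.0174 and 0.0174 and Hspe1 0.064, 0.071 and 0.072, and combined against saline gave Hspd1 0.042, 0.054 and 0.055 and Hspe1 0.12, 0.13 and 0.13. With 1 library left out, combined against saline ran from -0.95 to 0.072 for Hspa1a, -0.98 to 0.070 for Hspa1b, -0.92 to 0.086 for Hsph1 and -0.036 to 0.51 for Dnajb1. Combined against gefitinib ran from -0.043 to 0.97 for Hspa1a, -0.31 to 0.74 for Hspa1b, -0.64 to 0.37 for Hsph1, -0.38 to 0.013 for Hspa8 and -0.043 to 0.61 for Hspb1. Gefitinib against saline ran from -0.038 to 0.068 for Hspe1 and -0.046 to 0.11 for Bag3. Of the 351 values of other called chaperone genes, 257 stayed called, 94 missed the threshold and 0 changed sign. The cause of these changes was not tested.

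With 3 libraries per group, the 95% intervals of Hspa1a, Hspa1b, Hsph1 and Hspb1 span more than 3-fold, so a missed threshold does not show that these genes did not differ. Reads shared with near-identical copies leave the levels of all but Dnajb1, Hsph1 and Bag3 uncertain, and their assignment was not examined in the reads.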
